A study of Arabidopsis thaliana with 24 samples.

Results

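CP1 and scpl28 are protease genes of Arabidopsis thaliana, described here across 4 genotypes with and without the auxin indole-3-acetic acid (IAA). They are 2 genes with 1 probe set each, of 13356 genes that have a probe set of their own in the annotation used here. Each was taken as every probe set annotated to exactly 1 gene with that symbol. CP1 (locus AT4G36880, probe set 246250_at) is named cysteine proteinase 1 in RefSeq, which also calls it RD21A-like protease 1. The symbol CP1 is used for another Arabidopsis locus too, and the probe set was tied to this one by its gene identifier. scpl28 (locus AT2G35770, probe set 265846_at) is named serine carboxypeptidase-like 28. The genes were chosen from results of these same arrays: among probe sets with 1 annotated gene symbol, past the test's threshold and with a log2 difference of at least 1, CP1 and scpl28 had been among the 10 lowest in axr3-1 against wild type with IAA (rank 8 and rank 9) and in the difference of their responses (rank 1 and rank 2). Within the same restricted list, scpl28 had also been among the 10 highest in the IAA responses of iaa17-6 (rank 9) and iaa5-1 iaa6-1 iaa19-1 (rank 10), where CP1 lay outside the first 10. Over all 14192 tested probe sets, the rank of the 2 genes by size of log2 difference was 118 and 135 in the first of these comparisons. For comparisons of 2 groups, the choice also required that their arrays did not overlap. Values from the comparisons used for the choice are given below as description, with no p.

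RNA was taken from seedlings, 7 days old, grown in the light in shaken liquid medium with 1.5% sucrose under 16 h of light and 8 h of dark. The genotypes were Columbia wild type (Col) and 3 mutants in the same ecotype: axr3-1, iaa17-6 and a line with the alleles iaa5-1 iaa6-1 iaa19-1, referred to as the triple mutant. Each was given 5 µM IAA or ethanol, its control, for 2 h at 24 °C, and each of the 8 groups has 3 Affymetrix ATH1 arrays. The labels do not give the nature of the mutations, each mutant genotype is represented by 1 line, and nothing says whether replicates came from separate cultures, so the p-values speak for the variation among these arrays alone, part or all of which may be technical. The title of 1 axr3-1 control is spelled arx3-1 and its description reads axr3-1.

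Aux/IAA proteins repress auxin-responsive genes by binding the ARF transcription factors, and auxin brings about their degradation, which frees the genes. IAA17 is one of these repressors, and axr3-1 is known as a gain-of-function allele of it whose protein escapes rapid degradation. Papain-like cysteine proteases such as CP1 are made as inactive precursors with an inhibitory prodomain, work in the vacuole, the endoplasmic reticulum or the apoplast, and are held in check by cystatins. Serine carboxypeptidases cut single residues from the C-terminus of proteins, and some members of the plant carboxypeptidase-like family have become acyltransferases of secondary metabolism. Plant growth and the differentiation, senescence and death of cells all involve such enzymes.

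The deposited values are log2 expression per probe set and array, with a floor of 5.64, the log2 of 50. A value at the floor is an upper limit of the true value. The series has 22746 probe sets besides array controls. Those that never left the floor, 8554 of them, were set aside, leaving 14192 for testing. The 24 array medians ran from 5.941 to 6.064, and 44.4% to 46% of the values of an array lay at the floor. Differences, their standard errors (SE), 95% intervals and adjusted p-values are from 1 limma fit of all 24 arrays, with Benjamini-Hochberg adjustment over the tested probe sets within each comparison and a threshold of 0.05. The spread in that fit is shared by the 8 groups, also those at the floor, which have none. Across all probe sets, 6 arrays stood apart from their groups along the main axis of residual variation: replicate 3 of the Col control, of both iaa17-6 groups and of axr3-1 with IAA, and replicate 1 of both triple mutant groups. On those arrays CP1 deviated from its group mean by -0.34 to 0.10 on the log2 scale and scpl28 by -0.29 to 0.12.

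CP1 was close to the floor without IAA in every genotype and stood above it with IAA in 3 of the 4 genotypes. On the Col controls its log2 values were 5.83, 5.64 and 5.67, and with IAA they were 7.19, 7.10 and 6.98. The IAA arrays of Col all lay above its controls. On the iaa17-6 controls CP1 read 5.64, 5.64 and 5.68, and with IAA it read 6.90, 6.93 and 6.52. On the triple mutant controls it read 5.79, 5.64 and 5.64, and with IAA it read 6.78, 7.37 and 7.20. In both mutants the IAA arrays again lay above the controls. In axr3-1 the 3 controls were at 5.64 and the IAA arrays read 5.64, 5.71 and 5.64. Only 1 of the 6 axr3-1 arrays was above the floor. CP1 was thus above the floor on 14 of 24 arrays, which were the 9 IAA arrays of Col, iaa17-6 and the triple mutant, 4 controls and 1 axr3-1 array. These are levels of bulk RNA, in which fewer cells of a type and less RNA per cell cannot be told apart.

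scpl28 had the same outline. On the Col controls its log2 values were 5.72, 6.00 and 5.68, and with IAA they were 7.58, 6.70 and 6.77. The first Col IAA array stood well above the other two, and all 3 lay above the controls. On the iaa17-6 controls scpl28 read 5.64, 5.69 and 5.80, and with IAA it read 7.25, 7.49 and 7.55. On the triple mutant controls it read 5.70, 5.85 and 5.82, and with IAA it read 7.39, 7.85 and 7.80. The IAA arrays of both mutants lay above their controls, as the choice of scpl28 had required. Those of the triple mutant included the highest value of the gene. In axr3-1 scpl28 was at 5.64 on all 6 arrays. It was above the floor on 17 of 24 arrays, which were the 9 IAA arrays of the other genotypes and 8 of their 9 controls.

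**Figure D1:**
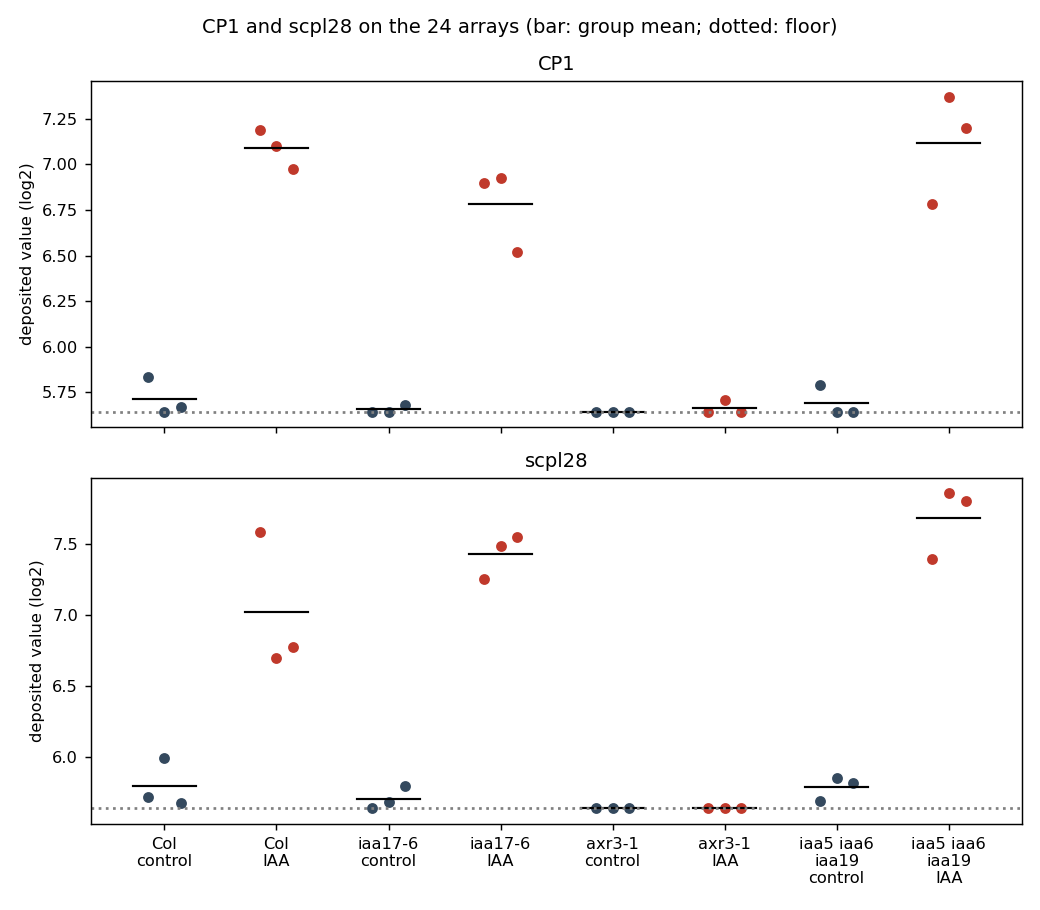
Deposited log2 values of CP1 (top) and scpl28 (bottom) on each of the 24 arrays, by genotype and treatment (dark points, ethanol control; red points, IAA; bar, mean of 3 arrays; dotted line, floor of 5.64). The 9 IAA arrays of Col, iaa17-6 and iaa5 iaa6 iaa19 lie between 6.52 and 7.37 for CP1 and between 6.70 and 7.85 for scpl28, while scpl28 is at the floor on all 6 axr3-1 arrays.

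Ordered by level, CP1 was highest in the triple mutant with IAA (7.12 ± 0.30 log2, SD, n = 3), then in Col with IAA (7.09 ± 0.11) and iaa17-6 with IAA (6.78 ± 0.23). The first 2 of these groups overlapped, and so did the triple mutant and iaa17-6, whereas the iaa17-6 arrays all lay below those of Col. The other 5 groups had means from 5.64 to 5.72, and each held at least 1 array at the floor, so they overlapped. scpl28 was highest in the triple mutant with IAA (7.68 ± 0.25), then in iaa17-6 with IAA (7.43 ± 0.15) and Col with IAA (7.02 ± 0.49), and these neighbours overlapped. Its control means were 5.80 ± 0.17 in Col, 5.79 ± 0.08 in the triple mutant and 5.71 ± 0.08 in iaa17-6, also overlapping, above the 5.64 of axr3-1.

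The first question of the design is which genes respond to IAA. CP1 rose with IAA in iaa17-6 and in the triple mutant, whose levels were in none of the comparisons that chose it. Their arrays did enter the choice through the spread shared in the fit. The difference of log2 levels was 1.13 in iaa17-6 (SE 0.12, 2.18-fold, limma adjusted p = 1.64e-06) and 1.43 in the triple mutant (SE 0.12, 2.69-fold, limma adjusted p = 6.62e-08). Each was seen on 3 of 3 IAA arrays, above every control. Of the controls, 1 of 3 was above the floor in each genotype, so that the rise may be larger than measured. In fits of only the 2 groups compared, which share no spread with groups at the floor, the adjusted p was 0.0172 in iaa17-6 and 0.0133 in the triple mutant. Without the 6 arrays that stood apart, the differences were 1.27 and 1.64. With the floor raised by 1 log2 unit, which by construction cuts the lower part of each rise, the iaa17-6 difference did not pass (0.18, limma adjusted p = 0.408). That of the triple mutant did (0.475, limma adjusted p = 0.00362). Over all tested probe sets, 4.41% were called higher with IAA in iaa17-6 and 3.68% in the triple mutant.

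The other rises are description, since they or the comparisons that contain them chose the genes. In Col, where 3.85% of the tested probe sets were called higher with IAA, CP1 stood 1.37 higher on the log2 scale (SE 0.12, 2.59-fold) and scpl28 1.22 higher (SE 0.17, 2.33-fold). With only the 2 Col groups in the fit, the SE of the scpl28 difference was 0.27. scpl28 stood 1.72 higher with IAA in iaa17-6 (3.29-fold) and 1.89 higher in the triple mutant (3.71-fold).

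In axr3-1 the levels with and without IAA lay close together for both genes. This too is description, since the difference of responses that chose the genes contains it. The CP1 difference was 0.02 on the log2 scale (95% interval -0.23 to 0.27). limma called 0 of the 2 genes, with 0 at an unadjusted p under 0.05, beside 1.79% of all probe sets called higher, and nothing is read from that count. For scpl28 both groups were at the floor, so no fold can be given, and a response below the floor would not be seen.

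**Figure D2:**
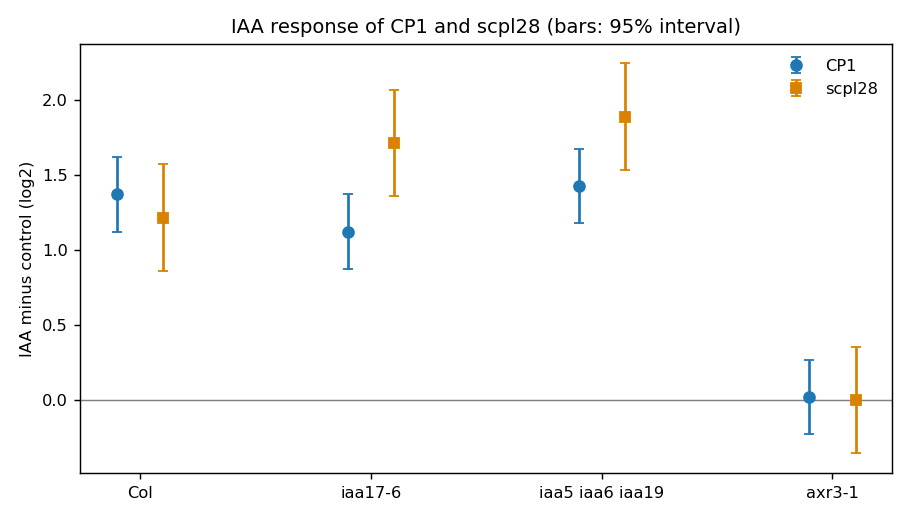
Difference of log2 levels between IAA and control arrays for CP1 (circles) and scpl28 (squares) in the 4 genotypes, with 95% intervals from the limma fit of 24 arrays. The differences lie between 1.13 and 1.89 in Col, iaa17-6 and iaa5 iaa6 iaa19, and at 0.02 (CP1) and 0 (scpl28, both groups at the floor) in axr3-1.

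The next question is how the mutants differ from one another and from Col. With IAA, CP1 stood lower in axr3-1 than in the other mutants. The axr3-1 arrays had entered the choice of CP1 and are shared by these comparisons, which are therefore description. The difference of log2 levels was -1.12 against iaa17-6 (SE 0.12, 2.17-fold lower), and every axr3-1 array lay below every iaa17-6 array. Against the triple mutant it was -1.45 (SE 0.12, 2.74-fold lower), again with no overlap. Among all probe sets, 4.21% were called lower in axr3-1 than in iaa17-6 with IAA and 4.09% lower than in the triple mutant. Without the arrays that stood apart, the differences were -1.24 and -1.61.

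Against Col with IAA, the comparison used for the choice, CP1 stood 1.42 lower on the log2 scale in axr3-1 (2.68-fold lower) and scpl28 at least 2.59-fold lower, as axr3-1 was at the floor. The share of all probe sets called lower there was 3.49%. scpl28 was at least 3.44-fold lower in axr3-1 than in iaa17-6 with IAA and at least 4.11-fold lower than in the triple mutant. These too are description, since every group in them had taken part in choosing scpl28.

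Without IAA, neither gene passed the threshold in axr3-1 against any other genotype, with 0 of 2 called by limma and 0 at an unadjusted p under 0.05 in each comparison. Over all probe sets, 9.05% were called in either direction against Col, 7.71% against iaa17-6 and 8.29% against the triple mutant. The control means of the other genotypes were at most 5.72 for CP1 and 5.80 for scpl28, close to the floor of 5.64. A lower level in axr3-1 could therefore hardly have been seen, and nothing is read from the counts of the 2 genes. The axr3-1 and Col controls entered the difference of responses that chose the genes, so the values are description. For CP1 the log2 difference from Col was -0.07 (95% interval -0.32 to 0.18). For scpl28 it was -0.16 from Col (95% interval -0.51 to 0.20) and -0.15 from the triple mutant (-0.50 to 0.21). The 3 axr3-1 controls of scpl28 lay at the floor, below all 3 controls of Col and all 3 of the triple mutant. The lowest of those controls read 5.68 in Col and 5.70 in the triple mutant, close to the floor.

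The differences between responses follow the same lines. The CP1 response of axr3-1 was 1.35 below that of Col on the log2 scale (SE 0.17), a comparison used for the choice. From the response of iaa17-6 it differed by -1.10 and from that of the triple mutant by -1.41 (SE 0.17 each), with the same axr3-1 arrays. For scpl28 the differences were -1.22 from Col, -1.72 from iaa17-6 and -1.89 from the triple mutant (SE 0.24 each), all description. They are differences of floored values, since scpl28 was at the floor in both axr3-1 groups. Of all probe sets, 0.874% were called lower in the response of axr3-1 against each of Col, iaa17-6 and the triple mutant. Without the arrays that stood apart, the scpl28 difference from Col was -1.16 and no longer passed the threshold.

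The other mutants were set against Col in the same way. The Col arrays had entered the choice of both genes, and those of both mutants the choice of scpl28, so these values are description. Without IAA, limma called 0 of the 2 genes in iaa17-6 or the triple mutant against Col, 0 at an unadjusted p under 0.05, and 0.197% and 0.176% of all probe sets. With IAA limma again called 0 of 2 in each, beside 0.106% of all probe sets in iaa17-6 and 0.148% in the triple mutant. Some unadjusted p-values were under 0.05, for both genes in iaa17-6 and for scpl28 in the triple mutant. Nothing is read from them. CP1 was 0.31 lower on the log2 scale in iaa17-6 than in Col with IAA (95% interval -0.55 to -0.06). The arrays did not overlap, but the difference did not pass the threshold. Leaving out each array in turn gave -0.38 to -0.18. In the triple mutant CP1 differed from Col by 0.03 (-0.22 to 0.28). scpl28 was 0.41 higher in iaa17-6 than in Col (95% interval 0.05 to 0.76) and 0.66 higher in the triple mutant (0.31 to 1.02), and both overlapped Col.

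The scpl28 comparisons with Col depend on 1 array. They are description, since all groups in them had entered the choice of scpl28. Without Col IAA replicate 1, which read 7.58, the difference with IAA became 0.94 in the triple mutant and 0.69 in iaa17-6, on the other side of the threshold from the values with all arrays. The difference between the responses of the triple mutant and Col was 0.67 with that array (95% interval 0.17 to 1.17) and 0.95 without it, and crossed the threshold in the same way. CP1 on the same array was 0.10 above its group mean, the highest of the 3. Whether the array or the other 2 stand for Col cannot be read from 3 arrays. The responses of iaa17-6 and Col differed by -0.25 for CP1 (95% interval -0.60 to 0.10) and 0.50 for scpl28 (-0.0037 to 1.00), and those of the triple mutant and Col by 0.05 for CP1 (-0.30 to 0.40). Neither CP1 difference passed the threshold, and both are description, since the Col arrays had entered the choice. Over all probe sets, 0.0282% were called in the response of iaa17-6 against Col and 0.0352% in that of the triple mutant.

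The serine carboxypeptidase-like family gives the setting of scpl28. Of its genes, 29 have a probe set of their own under a family name in the annotation used here, of which 15 never left the floor and 14 were tested. In Col, 0 of the 13 other than scpl28 passed the threshold with IAA in the limma fit, 2 had an unadjusted p under 0.05, and their log2 differences ran from -0.35 to 0.15. Over all probe sets the share called in either direction was 7.04% in Col, 7.72% in iaa17-6, 7.27% in the triple mutant and 2.4% in axr3-1, so counts of 0 or 1 among 13 are near the background. The median of the 14 was -0.09, and that of all tested probe sets was 0. Under 4 alternatives (quantile normalization, array weights, without Col control replicate 1, and the replicate number as a block) 1 of the 13 was called. The triple mutant also had 0 of 13 called (1 at an unadjusted p under 0.05, and 1 called with array weights) with a range of -0.38 to 0.39. In axr3-1 it was 0 of 13 (0 at an unadjusted p under 0.05) with a range of -0.53 to 0.38. In iaa17-6, 1 of the 13 fell with IAA, scpl29, by 0.39 on the log2 scale (limma adjusted p = 0.0325), named after its value was seen. That call was lost without each of 4 arrays, iaa17-6 control replicate 1, 2 or 3 or IAA replicate 1, among other alternatives.

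**Figure D3:**
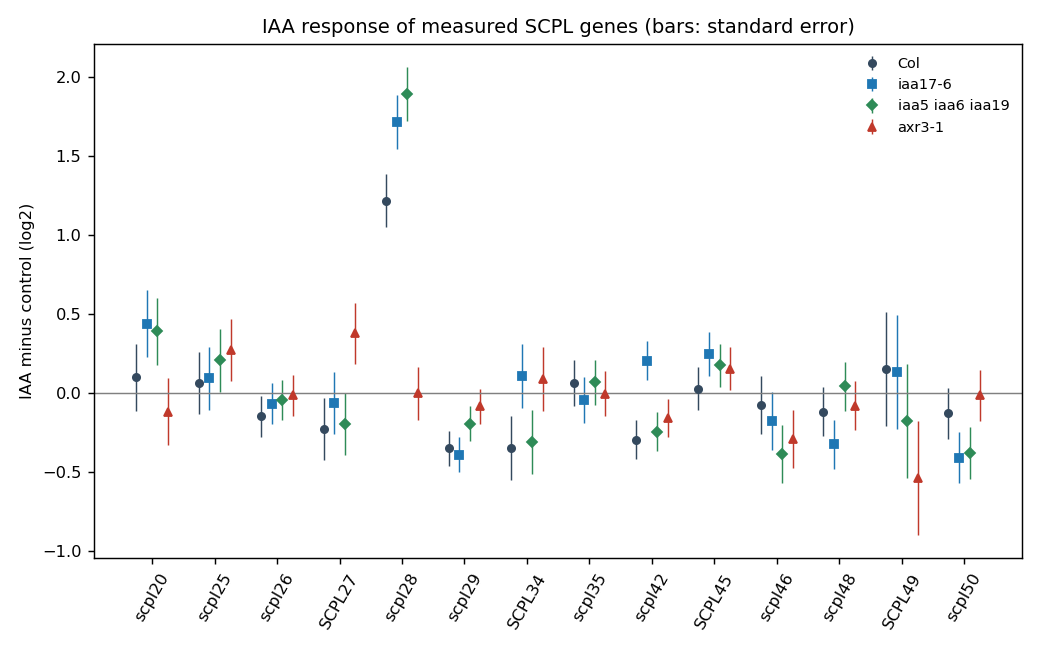
Difference of log2 levels between IAA and control arrays for the 14 tested serine carboxypeptidase-like genes in Col, iaa17-6, iaa5 iaa6 iaa19 and axr3-1, with standard errors from the limma fit. scpl28 lies at 1.22, 1.72 and 1.89 in the first 3 genotypes, and the other 13 genes lie between -0.35 and 0.15 in Col.

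The gene next to scpl28 in the TAIR10.1 annotation is a family member too. scpl26 was at 9.28 in the Col controls and 9.14 with IAA, a log2 difference of -0.15 (SE 0.13, limma adjusted p = 0.754). In axr3-1 with IAA it was 0.22 above Col (limma adjusted p = 0.409), where scpl28 was at the floor. AT2G35790, on the far side of scpl26, differed by 0.02 in Col with IAA (limma adjusted p = 1). RefSeq places the gene AT2G35765 across the start of scpl28, and it has no probe set of its own named here. Near CP1, AT4G36860 differed by -0.14 in Col with IAA (limma adjusted p = 0.881), and the genes directly on either side, BLH2 and IRX14, are not named by a separate probe set.

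Other protease genes were counted as the wider background, and for most of them the annotation names no separate probe set. CP1 is the only papain-like protease with one among the 36 names listed. Of the 3 tested vacuolar processing enzymes (legumains, which cut after asparagine and mature vacuolar proteins), 0 passed the limma threshold with IAA in Col (1 at an unadjusted p under 0.05; 1 was called with array weights or without the arrays that stood apart). GAMMA-VPE fell with IAA by 0.99 in axr3-1 (limma adjusted p = 0.00115), by 0.72 in the triple mutant (limma adjusted p = 0.00709) and by 0.54 in iaa17-6 (limma adjusted p = 0.0485), and differed by -0.45 in Col (limma adjusted p = 0.136). The iaa17-6 call was lost without each of 5 of its 6 arrays and in the fit of only those groups. It was also lost with no filter, with only probe sets off the floor on every array, and with the floor raised by 1 log2 unit. The triple mutant call was lost without control replicate 2 and in the fit of only those groups. In Col with IAA, 0 of 3 subtilases (1 at an unadjusted p under 0.05, and 1 called in the fit of only those groups), 0 of 2 aspartic proteases and 0 of 2 protease inhibitors, the cystatin CYS1 and SERPIN1, passed (0 at an unadjusted p under 0.05 in the last 2 lists). Over all probe sets 7.04% were called in either direction in Col with IAA. Counts of 0 in lists of 2 or 3 genes are near that background, and nothing is read from them. Of the subtilases, SBT4.12 fell with IAA in iaa17-6 by 0.66 (limma adjusted p = 0.0298), where 7.72% of all probe sets were called. That call was lost without each of 4 of the 6 arrays, with no filter and in the fit of only those groups. SBT4.12 differed by -0.41 in Col, -0.31 in the triple mutant and 0.20 in axr3-1, none past the threshold.

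In the controls, axr3-1 differed from Col in several other proteases. For CP1 and scpl28, close to the floor in Col, a fall could hardly have been seen there. BETA-VPE was 1.45 higher on the log2 scale (SE 0.20, limma adjusted p = 7.96e-05) and GAMMA-VPE 0.83 higher (SE 0.16, limma adjusted p = 0.0021). Each had all 3 axr3-1 arrays above those of Col. BETA-VPE also stood 0.81 above Col in the triple mutant controls (limma adjusted p = 0.143). In axr3-1 it stood 0.64 above the triple mutant (limma adjusted p = 0.0596) and 0.96 above iaa17-6 (limma adjusted p = 0.00436). The aspartic protease gene NANA was 1.58 higher (SE 0.33, limma adjusted p = 0.00342). The subtilase gene SBT4.12 was lower by a log2 difference of -1.28, from 9.53 ± 0.10 in Col to 8.25 ± 0.28 (SD, n = 3, limma adjusted p = 0.000102). Among the carboxypeptidase-like genes, 2 of 14 were higher and 1 lower, in the comparison in which 9.05% of all probe sets were called in either direction. scpl20 was 1.07 higher (limma adjusted p = 0.00212), scpl35 0.64 higher (limma adjusted p = 0.00615) and SCPL27 lower, by a log2 difference of -0.71 (limma adjusted p = 0.0245). In fits of only those 2 groups, BETA-VPE (adjusted p = 0.0847), scpl20 (0.0659) and SCPL27 (0.0731) did not pass. Of the Col controls of scpl20, 2 of 3 were above the floor. With the floor raised by 1 log2 unit, scpl20 (0.28, limma adjusted p = 0.0861) and SCPL27 (-0.14, limma adjusted p = 0.564) did not pass. SCPL27 also did not pass with array weights (adjusted p = 0.228), and it lost its call without each of 5 of the 6 arrays, with an adjusted p of up to 0.138. The 2 inhibitors had 0 calls (0 at an unadjusted p under 0.05).

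**Figure D4:**
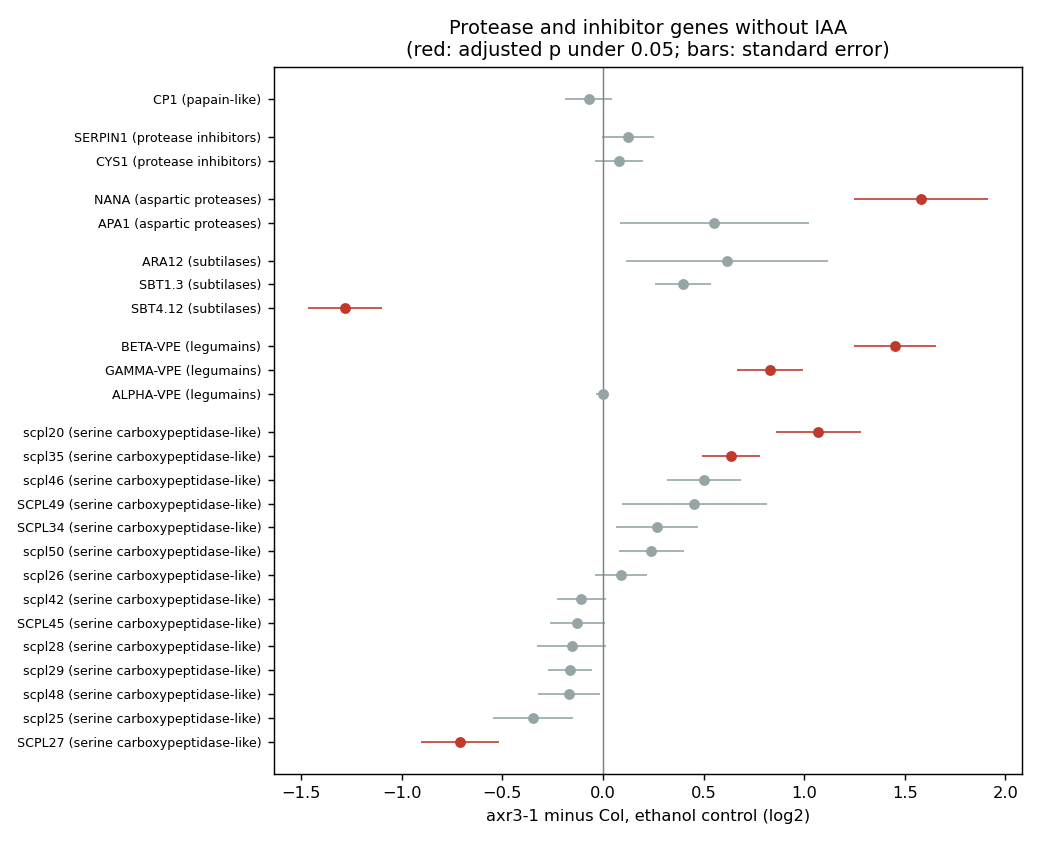
Difference of log2 levels between axr3-1 and Col without IAA for each tested protease and inhibitor gene, grouped by family, with standard errors from the limma fit (red, adjusted p under 0.05). CP1 lies at -0.07 and scpl28 at -0.16, with axr3-1 at the floor and Col close to it, so a fall could hardly show. BETA-VPE (1.45), NANA (1.58), scpl20 (1.07) and SBT4.12 (-1.28) lie more than 1 from 0.

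Some of the measured cell type markers also differed in axr3-1. All 3 measured root hair genes (of 7 listed), EXPA7, EXPA18 and XTH26, were at the floor on all 6 axr3-1 arrays, with a summed log2 level of 16.93. On the other arrays the sum ran from 19.78 to 22.09. PYK10, a root gene, read between 12.20 and 12.69 on all 24 arrays. Of 4 senescence genes, 2 were measured. WRKY53 was at the floor in the Col, axr3-1 and triple mutant controls and on 2 of 3 iaa17-6 controls. With IAA it was above the floor on all 3 arrays of each genotype, with means of 6.02 in Col, 6.81 in iaa17-6, 6.10 in the triple mutant and 6.11 in axr3-1, so it was higher with IAA beside CP1 and scpl28, and in axr3-1 too. SAG29 was above the floor in axr3-1 only, at 6.00 ± 0.33 (SD, n = 3) in the controls and 5.95 ± 0.11 with IAA. Their summed level ran from 11.29 to 12.02 in Col, from 11.29 to 12.87 in iaa17-6, from 11.29 to 12.35 in the triple mutant and from 11.35 to 12.80 in axr3-1. The listed tracheary, photosynthetic and embryonic storage markers are not named by a separate probe set. The part of root hair or senescing cells in the levels of CP1 and scpl28 was not tested.

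The genes whose pattern was most like theirs were sought among 136 probe sets with 1 annotated symbol and a range of at least 1 log2 unit over the 8 group means. The measure was Pearson's r with the 8 group means, a description in which the points share the IAA and axr3-1 groups. For CP1 the order was PUCHI (r = 0.997), GH3.1 (0.997), scpl28 (0.967), EXPA4 (0.963) and GH9B13 (0.955). For scpl28 it was IAA30 (r = 0.991), PUCHI (0.978), TRM28 (0.976), CP1 (0.967) and GH3.1 (0.946). PUCHI is an AP2/ERF transcription factor of lateral root formation, GH3.1 belongs to the enzymes that join auxin to amino acids, IAA30 is an Aux/IAA protein, EXPA4 an expansin and GH9B13 a cellulase. PUCHI, GH3.1 and IAA30 were above the floor on 9 of 24 arrays each, with their means above it in Col, iaa17-6 and the triple mutant with IAA and at it elsewhere.

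scpl28 thus had rank 3 for CP1, and CP1 rank 4 for scpl28. Over the 24 single arrays r between them was 0.941. Both had been chosen by the same comparisons of axr3-1 with Col, so likeness between them was partly fixed by the choice. By single arrays, CP1 shared 3 of its 5 most similar genes with the order by group means, scpl28 4 of 5. In axr3-1 EXPA4 had log2 means of 8.98 without and 9.45 with IAA, and GH9B13 of 6.63 and 7.37. There TRM28 had means of 5.66 and 5.79, and CP1 of 5.64 and 5.67. All are given here with no test. For PUCHI the means with IAA were 6.57 in Col, 6.44 in iaa17-6 and 6.72 in the triple mutant. For GH3.1 they were 7.74, 7.06 and 7.68, and for IAA30 6.33, 6.73 and 6.98. The CP1 means with IAA were 7.12 in the triple mutant and 7.09 in Col, with overlapping arrays, so nothing is read from their order. PUCHI, GH3.1 and IAA30 were picked for likeness over all groups.

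**Figure D5:**
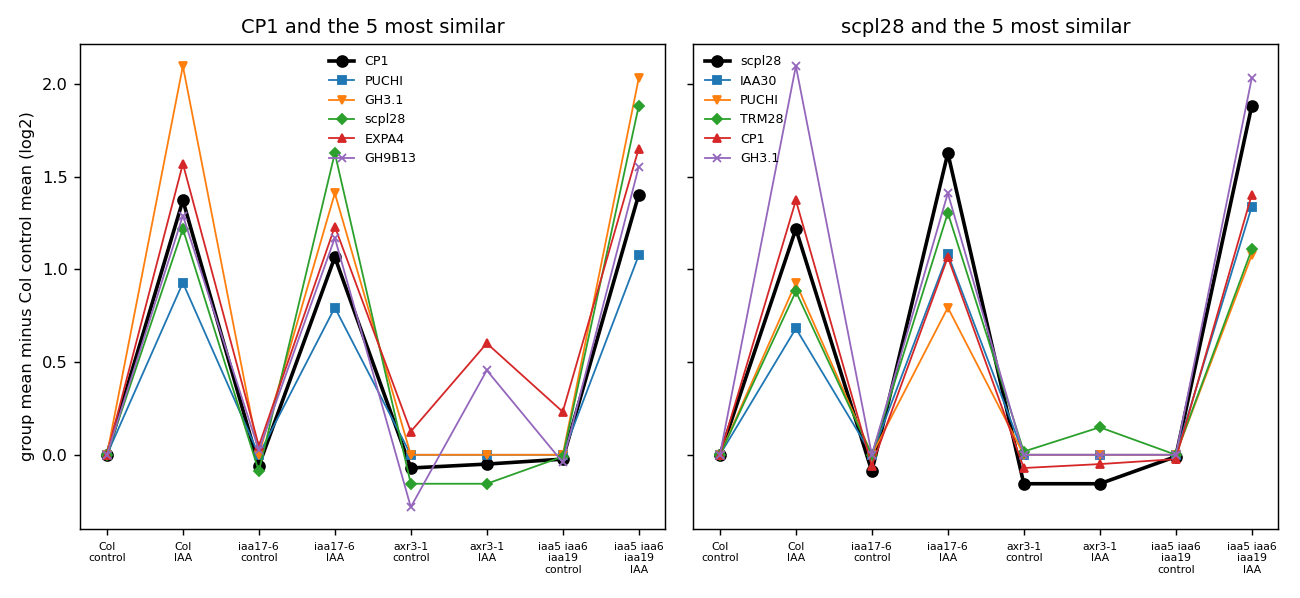
Group means of log2 level, each minus the mean of the Col controls, for CP1 (left) and scpl28 (right) and the 5 genes most like each over the 8 groups. All lines are higher with IAA than without in Col, iaa17-6 and iaa5 iaa6 iaa19. In axr3-1 the means of EXPA4 and GH9B13 are higher with IAA, that of TRM28 is 5.66 without and 5.79 with IAA, and PUCHI, GH3.1 and IAA30 are at the floor.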

How the data were processed

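The deposited values are on a log2 scale, given for every probe set on each array. Scale and floor (5.64) were read from the values, as how the authors summarized, normalized and floored them is not given in the sources used here. Their normalization was kept, and the 64 control probe sets were left out. Groups came from the labels. CP1, scpl28, the lists and the comparisons were chosen with earlier results of these data known. limma 3.58.1 in R 4.3.3 (lmFit, eBayes with a mean trend) fitted 8 group means to 24 arrays, with 16 residual degrees of freedom. The 19 comparisons were tested two-sided, with Benjamini-Hochberg adjustment, after testing on simulated data. The number of arrays limits precision, the median SE being 0.152 between 2 groups and 0.215 between 2 responses. Within groups, arrays correlated at 0.958 to 0.996, and 0 pairs were identical.

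Named genes are the members, the 5 probe sets most like each, and listed protease genes past the threshold in Col with IAA or in axr3-1 against Col in the controls. Where a gene had several such probe sets, the brightest stood for it. In the annotation used here 13513 probe sets name 1 gene (1580 of these with a symbol), 503 several and 8730 none. RefSeq (TAIR10.1) gave names and neighbours. Alternatives were quantile normalization, median centring, other filters, a raised floor, array weights, fits of only the groups compared, leaving out arrays and a replicate block. Same-numbered arrays deviated together (every correlation over 0.1) in 4 pairs of groups: iaa17-6 control with iaa17-6 IAA, the triple mutant control with its IAA group, Col control with iaa17-6 control, and iaa17-6 IAA with axr3-1 IAA.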

Additional observations from a re-analysis of the deposited data

Results flagged for a closer look

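These differences between responses are listed because they set axr3-1 apart from the other genotypes for both genes, as the choice of the genes had already done, so they are description. The log2 response of CP1 in axr3-1 differed by -1.35 from Col, by -1.10 from iaa17-6 and by -1.41 from the triple mutant. That of scpl28 differed by -1.22, -1.72 and -1.89, as differences of floored values. All 6 share the axr3-1 arrays, which had entered the choice. The scpl28 difference from Col lost its call in a fit of only the groups compared and without the arrays that stood apart. Dixon's test of single samples was not made, as groups of 3 are too small for it.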

How the results depend on the processing

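For the 2 genes, 38 results gave 638 values under alternative settings. Of these, 621 kept their side of the threshold, 13 lost the call, 4 gained it and 0 calls reversed. Differences that were not called could change sign and still count as kept. CP1 in the triple mutant against Col in the controls, for example, ran from -0.07 to 0.03 on leaving out each array in turn. With the floor raised by 1 log2 unit, which by construction cuts the lower part of each rise, calls were lost for CP1 in the response of iaa17-6 (0.18), in axr3-1 against iaa17-6 with IAA (-0.18) and in the axr3-1 response against Col (-0.44), iaa17-6 (-0.18) and the triple mutant (-0.47). For scpl28 they were lost in the Col response (0.37), in axr3-1 against Col with IAA (-0.37) and in the axr3-1 response against Col (-0.37) and iaa17-6 (-0.78). Fits of only the groups compared, with fewer samples, lost the scpl28 calls of the Col response (1.22), of axr3-1 against Col with IAA (-1.37) and of the axr3-1 response against Col (-1.22). The last was also lost without the arrays that stood apart (-1.16). Array weights gained the call of scpl28 in the triple mutant against Col with IAA (0.75). Leaving out each array in turn gave 0.50 to 0.94 for that difference, 0.25 to 0.69 for iaa17-6 against Col and 0.51 to 0.95 for the triple mutant response against Col. A filter that keeps only probe sets off the floor on every array leaves out both genes and gives no value.

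With the replicate number as a block, the CP1 difference in iaa17-6 was 1.13 (limma adjusted p = 4.45e-06), and the block, over all groups or over the paired groups alone, changed no call of either gene. Counts over all probe sets moved too. Array weights raised those of the triple mutant against Col with IAA from 21 to 1698 and in the controls from 25 to 221, of its response from 1032 to 2348, and of the Col response from 999 to 1753. The filter and fits of only the groups compared gave 576 and 595 in the Col response, and 144 and 84 in place of 341 in the axr3-1 response. The arrays that stood apart and the block over paired groups were added after seeing the data.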
